A study of Mus musculus with 31 samples.

Results

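The insulin-like growth factor (IGF) axis was described in whole kidney RNA-seq of 31 mice through 10 genes of the 23509 listed: the ligands Igf1 and Igf2, the receptor Igf1r and the binding proteins Igfbp1 to Igfbp7. The members were chosen by gene family name, but the family itself was selected on the fall of Igfbp2 under the drug, so values of the members for RGLS4326 against PBS, and all values of Igfbp2 between groups, are given as a description with no p-value. Counts of called genes in that contrast are likewise given as a description and support nothing. All 10 passed the filter on low counts, as did 15185 genes in all.

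The 3 groups compared were all harvested at 30 weeks of age. Pcy/CD1 mice, a slowly progressing model of polycystic kidney disease on the CD1 background, received PBS (n = 12) or RGLS4326 at 25 mg/kg (n = 14) by subcutaneous injection from 5 weeks of age for 25 weeks. RGLS4326 is a short oligonucleotide that binds and inhibits the microRNA miR-17. It was given monthly, while PBS is monthly in the protocol and weekly in the sample labels, so injection frequency may differ between the Pcy groups. Untreated male WT/CD1 mice (n = 5) carried neither the Pcy mutation nor injections, so genotype and injection cannot be told apart in any comparison with wild type. Each library is labelled as a separate mouse.

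IGF-1 and IGF-2 are small secreted peptides that signal mainly through the IGF-1 receptor, a tyrosine kinase upstream of PI3K, Akt and mTOR. In blood and tissue most IGF is held by secreted binding proteins, which limit or prolong its access to the receptor and are themselves cleaved by proteases. In kidney the axis is known for its part in growth of the organ and in the response of tubules to injury.

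Gene counts totalled 14892524 to 27459962 per mouse. Levels are CPM, gene counts divided by library size as edgeR computes them, with each library size multiplied by a TMM factor, which corrects for differences in composition. These factors were 0.818 to 0.854 in wild type, 1.0 to 1.17 with PBS and 0.890 to 1.08 with RGLS4326. With library size alone, the median gene was shifted by 0.37 on the log2 scale for PBS against wild type, by 0.26 for RGLS4326 against wild type and by -0.11 for RGLS4326 against PBS. Results whose call depends on this choice are named where they occur. RGLS4326 mouse 9 stood near wild type (Lcn2, an injury mRNA, at 2.76 CPM against 125.8 to 606.9 CPM in the other 13 treated mice), and values are also given without it. Wild-type mice 3 and 4 resembled each other most (chi-square of 2.84 per gene, against at least 17.1 for other wild-type pairs), a difference above counting noise that does not by itself show separate animals. They were counted as the separate mice that the labels give. Index series are sets of libraries inferred from restarts of the library numbers within each group. Runs in the same position were assumed to match across groups, which the labels do not state. Mice 3 and 4 are the only wild-type mice of index series 2, so values against wild type within that series rest on this pair.

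The short sequences that bear on the axis are shown first. The mature target of the drug, mmu-miR-17-5p, carries the seed (bases 2 to 8, in capitals) shared by 7 mouse miRNAs in RefSeq, and it is set beside a relative and beside the only match to that seed in the longest annotated 3′UTR of any of the 10 members.
mmu-miR-17-5p: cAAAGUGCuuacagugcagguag
mmu-miR-20a-5p: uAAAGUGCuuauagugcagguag
Igfbp4 3′UTR site: gtgtcagcctGCACTTTgggacttgttgga
The Igfbp4 site lies on the plus strand of GRCm38 at chr11:99053131-99053160, with the 7-base seed match in capitals. A match of this kind was present in 14% of 13832 tested genes with an annotated 3′UTR. It is a match of letters and no evidence of binding.

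Igfbp2 and Igfbp5 are neighbours on chromosome 1, at chr1:72824503-72852474 on the plus strand and chr1:72857932-72874884 on the minus strand, 5457 bases apart. Igfbp1 and Igfbp3 are likewise neighbours on chromosome 11, 3539 bases apart on opposite strands (chr11:7197782-7202546 and chr11:7206086-7213923). Igfbp4 spans chr11:99041244-99054392 and Igfbp6 chr15:102144362-102149511, both on the plus strand. Igf1r spans chr7:67952827-68233668 on the plus strand. Promoters of 300 bases around RefSeq starts (GRCm38.p6) were searched on both strands for the GC box (GGGCGG), the TATA box (TATAAA), the E-box (CACGTG) and an insulin response element (CAAAACA), and windows of 30 bases are shown for Igfbp2, whose fall chose the family, and for the member known to be repressed by insulin, with motifs in capitals.
Igfbp2 E-box: cgtgtgcacaagCACGTGccctcacgcaag
Igfbp2 GC boxes: ggggggGGGCGGtgcggggggGGGCGGtgc
Igfbp1 insulin response element: agagctcacaagCAAAACAaacttattttg
These windows lie at chr1:72824326-72824355, chr1:72824361-72824390 and chr11:7197667-7197696, all on the plus strand. The promoter at the first Igfbp2 start held 3 GC boxes and 1 E-box in a sequence of 67.0% GC, against a median of 52.7% over 32851 promoters. GC boxes were present in 35.7% of all promoters, E-boxes in 7.15%, TATA boxes in 13.6% and the insulin response element in 6.28%. The Igfbp5 promoter held none of these 4 motifs.

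Compared per kilobase of exon, Igfbp7 was the most abundant member in every group, followed by Igfbp4 and Igfbp5. Wild-type kidney held 898 ± 40.0 CPM per kb of Igfbp7 (SD, n = 5), 261 ± 17.7 of Igfbp4, 87.0 ± 12.1 of Igfbp5 and 42.6 ± 8.53 of Igfbp3, with no overlap between these neighbours. Igf1r followed at 16.8 ± 1.96 CPM per kb. Below it, Igfbp1, Igfbp2, Igf1, Igfbp6 and Igf2 overlapped with their next neighbours in level, and Igf2 was lowest at 0.316 ± 0.0632 CPM per kb. The order changed most for Igfbp2, which was in place 7 in wild type, 4 with PBS and 5 with RGLS4326, though in both Pcy groups its range overlapped those of the genes on either side. Igfbp6 and Igf1 also changed places: Igf1 was above Igfbp6 in 4 of 5 wild-type mice, and Igfbp6 was above Igf1 in 12 of 12 PBS mice and 13 of 14 treated mice.

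Both ligands were expressed at low levels, and neither differed in a way that passed the test against wild type. Igf1 read 8.85, 6.77, 5.21, 7.27 and 9.15 CPM in wild-type mice 1 to 5. With PBS it ranged from 5.85 to 11.2 CPM (median 8.92) and with RGLS4326 from 6.21 to 14.2 CPM (median 8.44). All groups overlapped, and the log2 fold change against wild type was 0.29 (SE 0.16, edgeR adjusted p = 0.0955) for PBS and 0.23 (SE 0.15, edgeR adjusted p = 0.193) for RGLS4326. Library size alone put the PBS value at 0.66, which passed both thresholds (adjusted p = 0.000989). Igf2, the fetal growth factor, read 2.30, 2.08, 1.66, 1.45 and 1.57 CPM in wild type, 0.884 to 2.89 CPM (median 1.63) with PBS and 0.800 to 3.47 CPM (median 1.75) with RGLS4326. The adjusted p from edgeR was 0.733 for PBS against wild type and 0.949 for RGLS4326 against wild type. Igf1 and Igf2 overlap antisense genes in the annotation (Igf1os and Igf2os), as does Igfbp7 (Gm34648 and Polr2b), and how counting treated strand is not given in the sources used here.

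Igf1r mRNA, which encodes the receptor, was lower than wild type by less than the size threshold. The wild-type mice read 278, 314, 248, 251 and 316 CPM. PBS mice ranged from 176 to 246 CPM (median 207) and RGLS4326 mice from 191 to 269.9 CPM (median 222). Every PBS mouse was below every wild-type mouse, while treated mice overlapped the wild-type range. With library size alone PBS mice overlapped it too, at 197 to 265 CPM against 210 to 270 CPM in wild type. The log2 fold change was -0.43 (SE 0.084, edgeR adjusted p = 3.98e-05) for PBS against wild type and -0.29 (SE 0.083, edgeR adjusted p = 0.00266) for RGLS4326 against wild type. Under scaling by library size these values were -0.07 and -0.05, with adjusted p = 0.343 and 0.548. Relative to the median gene under that scaling, they were -0.45 and -0.30. Within index series the PBS values were -0.46, -0.23 and -0.63. The third passed both thresholds (adjusted p = 0.0135, edgeR) and the second passed neither (adjusted p = 0.221). The treated values were -0.40, -0.08 and -0.45, none past both thresholds.

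**Figure D1:**
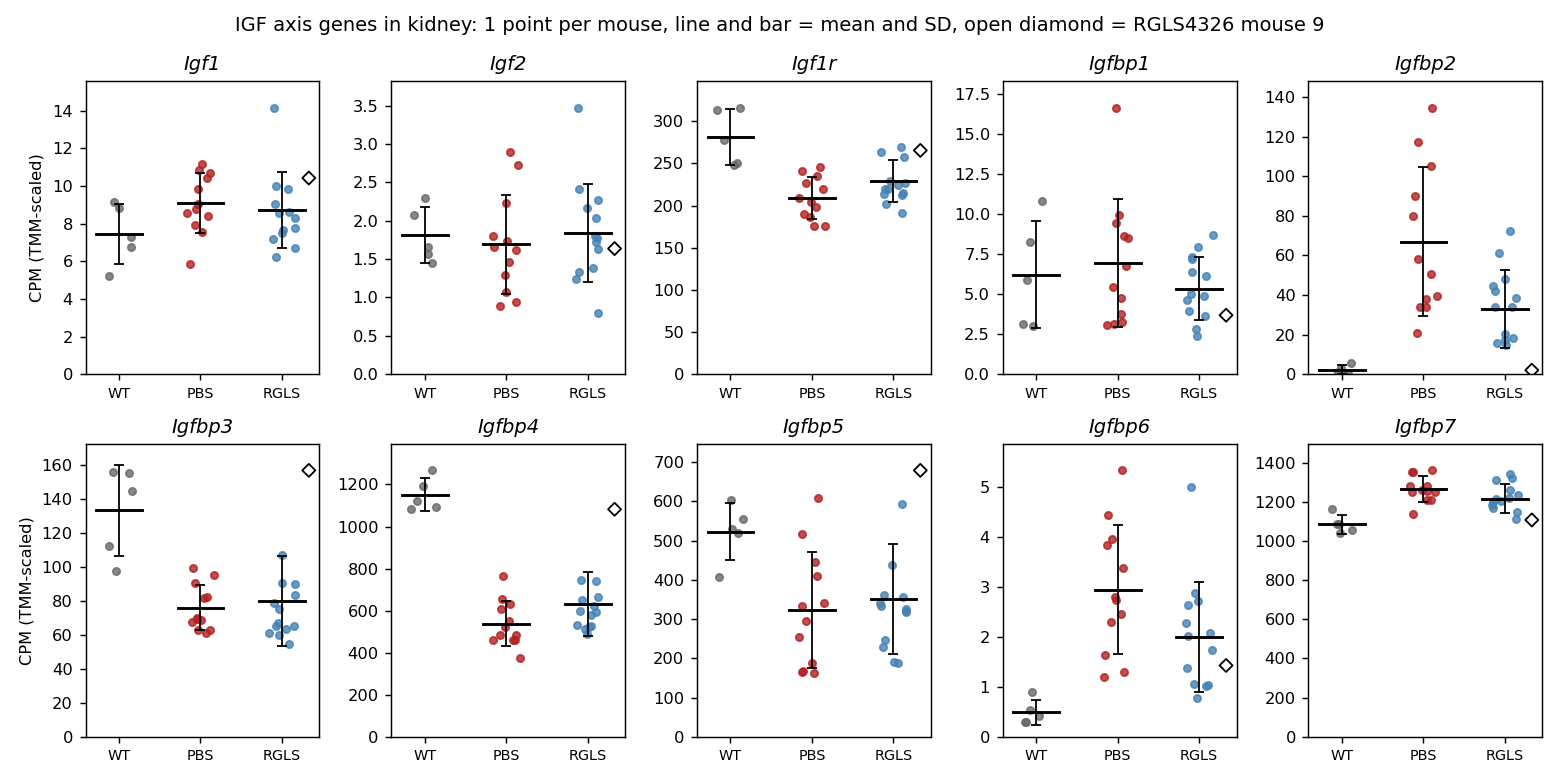
TMM-scaled CPM (y axes, linear from 0) of the 10 members in wild-type (n = 5), PBS (n = 12) and RGLS4326 (n = 14) mice. Each point is 1 mouse, lines and bars are mean and SD, and the open diamond is RGLS4326 mouse 9, which sits within the wild-type range for Igfbp2, just below it for Igfbp4 and above it for Igfbp3 and Igfbp5. Igfbp2 and Igfbp6 of PBS mice lie above all wild-type mice, and Igfbp4 and Igf1r lie below them, Igf1r only under TMM scaling.

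Among the binding proteins, Pcy kidneys held more Igfbp2 and Igfbp6 and less Igfbp4, with smaller differences of Igfbp3 and Igfbp5. In PBS mice against wild type, of the 9 members tested, 1 was higher (Igfbp6), 3 were lower (Igfbp3, Igfbp4 and Igfbp5) and 5 did not pass both thresholds, which ask for an adjusted p under 0.05 and a change of more than 0.5 on the log2 scale. Among all 15185 genes 24.6% were higher and 17.8% lower by the same rule. The ranges of 3 of the 9 (Igf1r, Igfbp4 and Igfbp6) did not overlap between the groups, as was true of 42.2% of all genes. With library size alone Igf1r overlapped, while Igfbp4, Igfbp6 and Igfbp7 did not. The share of all genes was not counted under that scaling. By library size alone 6285 genes were higher and 1071 lower, in place of 3741 and 2701, while 3 members were higher (Igf1, Igfbp6 and Igfbp7) and 1 was lower (Igfbp4). The median log2 fold change of the 9 was -0.10, beside 0.01 for all genes.

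In RGLS4326 mice against the same wild-type mice, 1 member was higher (Igfbp6), 2 were lower (Igfbp3 and Igfbp4) and 6 were not called. The background was 20.3% higher and 11.3% lower, or 3077 and 1712 genes, which became 4634 and 744 by library size alone. Igfbp4 alone of the 9 did not overlap between these groups, against 14.8% of all genes. With library size alone Igfbp4 overlapped, while Igfbp6 and Igfbp7 did not. The median of the 9 was -0.22, beside 0.0037 for all genes. Both comparisons share the wild-type mice.

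Igfbp2, which binds both IGFs, had the widest range of the family as a ratio of highest to lowest mouse, though not in CPM. Wild-type mice 1 to 5 read 0.708, 5.58, 0.651, 0.908 and 3.25 CPM. PBS mice ranged from 20.9 to 134.7 CPM (median 54.3) and RGLS4326 mice from 1.99 to 72.4 CPM (median 33.9). All 12 PBS mice and 13 of 14 treated mice lay above every wild-type mouse, the exception being mouse 9. Means with SD were 2.22 ± 2.17 CPM over the 5 wild-type mice, 66.9 ± 37.6 CPM over the 12 PBS mice and 33 ± 19.7 CPM over the 14 treated mice. The fitted difference was a log2 fold change of 4.91 (SE 0.68) for PBS against wild type, 30.1-fold, and 3.90 (SE 0.66) for RGLS4326 against wild type. Wild-type mouse 2, the highest of its group, moved these values most, and without it they were 5.60 (SE 0.80) and 4.59 (SE 0.78).

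Between the Pcy groups, Igfbp2 had a log2 fold change of -1.02 (SE 0.34), and this value chose the family. It was number 2 among the 798 genes with an adjusted p under 0.05, a negative change and a mean of at least 5 CPM, ordered by size. Of the treated mice, 6 of 14 lay below the lowest PBS mouse, and 5 of 12 PBS mice lay above the highest treated mouse, so the groups overlapped in the middle. The difference was -0.91 without mouse 9, with a treated mean of 35.4 ± 18.3 CPM (SD, n = 13). It was -0.36, -1.43 and -1.24 in the 3 index series. Of the 10 members, 1 was called lower (Igfbp2) and 0 higher, where 1.22% of all genes were lower and 0.935% higher (185 and 142 genes, or 600 and 88 by library size alone). These counts of all genes moved widely when 1 mouse was left out, from 36 lower and 42 higher without PBS mouse 10 to 365 and 209 without RGLS4326 mouse 2, and a replicate block gave 18 and 25. Nothing is read from this count, since the contrast chose the family.

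Igfbp6, which prefers IGF-2, was the least abundant binding protein and rose against wild type in both Pcy groups. It read 0.295, 0.891, 0.296, 0.424 and 0.542 CPM in wild type (5 to 15 counts per mouse), 1.21 to 5.34 CPM (median 2.77) with PBS and 0.778 to 5.00 CPM (median 1.88) with RGLS4326. Every PBS mouse and 13 of 14 treated mice exceeded every wild-type mouse. PBS against wild type gave a log2 fold change of 2.59 (SE 0.44, edgeR adjusted p = 6.55e-06), 6.0-fold, and RGLS4326 against wild type gave 2.03 (SE 0.44, edgeR adjusted p = 0.000231). Within index series the PBS values were 2.26, 3.08 and 2.46, each called, and the treated values were 2.13, 2.14 and 1.86, called in the first series only. RGLS4326 against PBS was -0.56 (SE 0.25), as a description.

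Igfbp4, which restrains IGF action until the protease Pappa cleaves it, fell in both Pcy groups. Wild-type mice read 1267, 1194, 1123, 1091 and 1083 CPM. With PBS the range was 377 to 764 CPM (median 505) and with RGLS4326 487 to 1082 CPM (median 597). Neither range reached the lowest wild-type mouse, although mouse 9, at 1082 CPM, came within 1 CPM of it, and the other treated mice reached at most 744 CPM. Scaled by library size alone, the treated range did reach the lowest wild-type mouse, at up to 963 CPM against 916 CPM. The log2 fold change was -1.10 (SE 0.14, edgeR adjusted p = 6.66e-08) for PBS and -0.86 (SE 0.14, edgeR adjusted p = 4.46e-06) for RGLS4326, both against wild type. It was called within each index series for PBS (-1.34, -0.93 and -0.95) and within the first for RGLS4326 (-1.20, then -0.69 and -0.68). Igfbp4 carries the miR-17 seed match shown above, and for RGLS4326 against PBS it read 0.23 (SE 0.11), or 0.15 without mouse 9.

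Igfbp3, the main carrier of circulating IGF, read 144.6, 97.5, 156, 155 and 112 CPM in wild type, 61.3 to 99.1 CPM (median 69.7) with PBS and 54.8 to 156.8 CPM (median 71.2) with RGLS4326. Only 1 wild-type mouse lay within the PBS range, and the highest treated mouse was mouse 9. It fell by 0.81 on the log2 scale (SE 0.17, edgeR adjusted p = 9.62e-05) with PBS and by 0.74 (SE 0.17, edgeR adjusted p = 0.000342) with RGLS4326 against wild type. By library size alone the values were -0.45 and -0.49, under the size threshold. Within index series 3 the PBS difference was -0.65 (adjusted p = 0.0881), and for RGLS4326 it was called in the first series only.

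Igfbp5, which binds extracellular matrix and lies beside Igfbp2, was spread widely in the Pcy mice. Wild type read 406, 555, 529, 519.5 and 602 CPM, PBS 162 to 608 CPM (median 314) and RGLS4326 188 to 679 CPM (median 329). Of the PBS mice, 8 of 12 lay below all wild-type mice, and 1 lay above them. The log2 fold change for PBS against wild type was -0.69 (SE 0.28, edgeR adjusted p = 0.0257). This call was lost without wild-type mouse 2 (adjusted p = 0.0514) or mouse 5 (adjusted p = 0.0625), with library size alone (-0.34, adjusted p = 0.233) and within every index series. For RGLS4326 against wild type it was -0.57 (SE 0.27, edgeR adjusted p = 0.0635), and it passed without RGLS4326 mouse 9 (-0.68, adjusted p = 0.0206) or mouse 10 (-0.65, adjusted p = 0.0345).

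Igfbp7, a relative with weak IGF binding that is abundant in vessels, read 1164, 1084, 1086, 1055 and 1038 CPM in wild type. With PBS it ranged from 1138 to 1360 CPM (median 1257), and 11 of 12 mice were above all wild-type mice. With RGLS4326 it ranged from 1107 to 1341 CPM (median 1209). The difference from wild type was small, at 0.22 (SE 0.052, edgeR adjusted p = 0.000364) for PBS and 0.16 (SE 0.051, edgeR adjusted p = 0.00657) for RGLS4326, both under the size threshold. Scaling by library size gave 0.59 and 0.42, and the first was called.

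Igfbp1, a liver product that insulin represses, read 10.8, 5.88, 3.02, 3.15 and 8.25 CPM in wild type, 3.07 to 16.7 CPM (median 6.08) with PBS and 2.40 to 8.71 CPM (median 4.93) with RGLS4326. The groups overlapped throughout, and neither comparison with wild type passed the test (adjusted p = 0.705 and 0.585, edgeR). Within index series the PBS values were -0.80, 1.59 and -0.28, and the second was called (adjusted p = 0.0321, edgeR). Liver mRNAs were also detected: the summed level of 6 liver markers was 24.6 to 262 CPM in wild type, 9.47 to 82.2 CPM with PBS and 10.6 to 475.7 CPM with RGLS4326, the highest being mouse 9. Of these markers 3 were lower with PBS and 1 with RGLS4326, or 1 in each with library size alone, beside 17.8% and 11.3% of all genes lower. Their part in the Igfbp1 values was not tested.

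**Figure D2:**
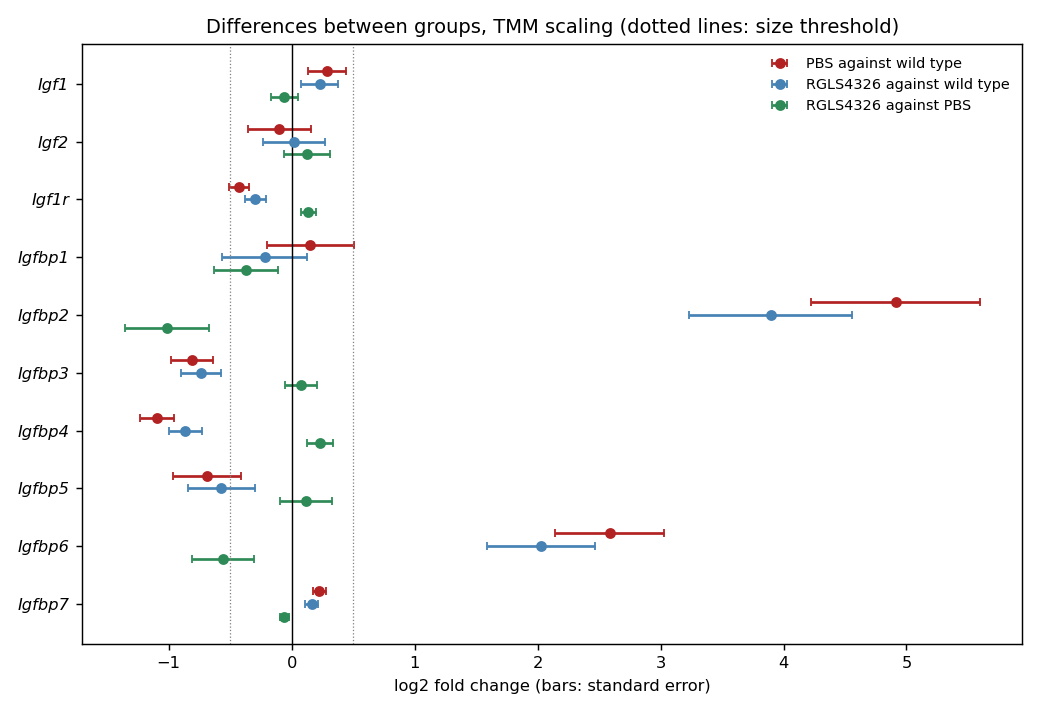
Log2 fold change (x axis) of each member with its standard error, for PBS and RGLS4326 against wild type and for RGLS4326 against PBS. Dotted lines mark 0.5 in each direction. Igfbp2 and Igfbp6 lie to the right of 2 against wild type, Igfbp4 lies near -1, and Igfbp2 at -1.02 is the farthest from 0 for RGLS4326 against PBS.

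As shares of the 7 binding proteins per kilobase, which do not depend on scaling between mice, the pool shifted toward Igfbp7. Igfbp7 made up 69.4% ± 0.531 (SD) of the pool in the 5 wild-type mice, 81.2% ± 1.43 in the 12 PBS mice and 80.1% ± 3.65 in the 14 treated mice. Igfbp4 made up 20.1% ± 0.675, 9.44% ± 1.82 and 11.4% ± 2.40 in the same order. Igfbp2 made up 0.0937% ± 0.0913, 2.81% ± 1.59 and 1.43% ± 0.840. For Igfbp7 and Igfbp4 every PBS mouse lay outside the wild-type range. Mouse 9 had the lowest Igfbp7 share of the treated mice, 68.9%. A share rises when others fall, so these values do not say which gene changed.

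**Figure D3:**
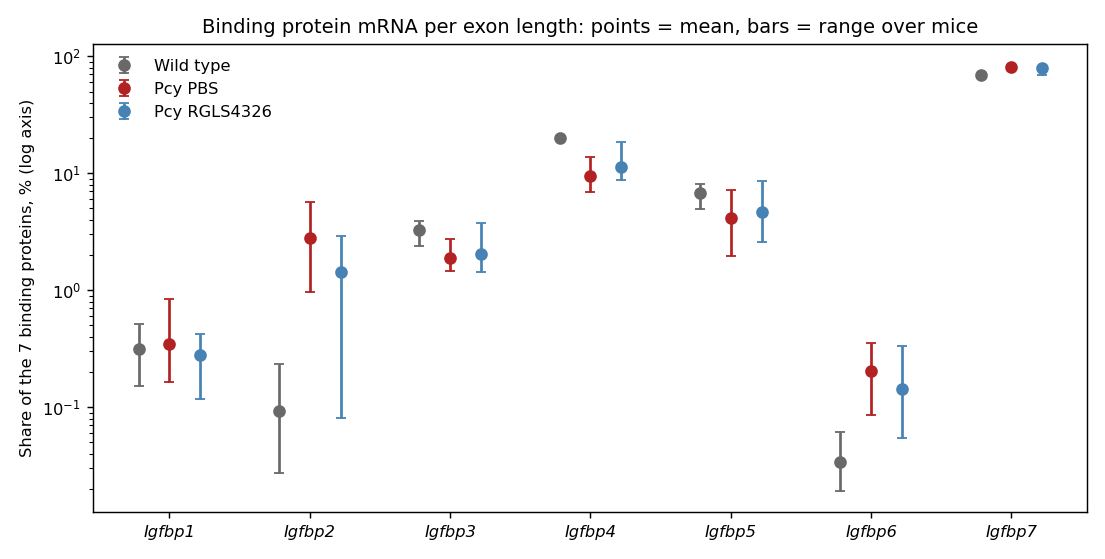
Share of each binding protein in the sum of all 7, per kilobase of exon, in percent on a log axis. Points are group means (n = 5, 12 and 14 mice) and bars run from the lowest to the highest mouse. The Igfbp2 share runs from 0.973% to 5.63% with PBS and from 0.0272% to 0.233% in wild type.

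Within each Pcy group the members differed in how they followed Lcn2, the mRNA of the tubule injury protein Ngal. This used differences between mice of 1 group, which the choice of the family did not use. Igfbp2 rose with Lcn2 across the 12 PBS mice (Pearson r = 0.96, adjusted p = 0.0002, Spearman rho = 0.95, two-sided permutation test) and across 13 RGLS4326 mice without mouse 9 (r = 0.94, adjusted p = 0.0004, rho = 0.89). The unadjusted p of 1e-05 in the PBS group was the smallest that 100000 permutations can give, and 20 relations were adjusted together. Without the 2 mice farthest from the median of Lcn2, r was 0.94 and 0.93. Within the index series of 4 or 5 mice r was 0.90 to 0.999.

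Igfbp6 rose with Lcn2 as well, at r = 0.83 with PBS and r = 0.78 with RGLS4326 (rho = 0.87 and 0.68, adjusted p = 0.00652 for each r, permutation test). Its r was 0.72 and 0.77 without the 2 farthest mice, and the PBS relation then missed the threshold (adjusted p = 0.0521). With mouse 9 included, the treated r was 0.44 and the call was lost (adjusted p = 0.175), while rho was 0.68 (adjusted p = 0.0197, permutation test). Within index series r was 0.86 to 0.95.

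Igf1r and Igfbp5 were lower where Lcn2 was higher. For Igf1r r was -0.86 with PBS and -0.72 with RGLS4326 (adjusted p = 0.00313 and 0.0145, rho = -0.84 and -0.76, permutation test). For Igfbp5 r was -0.80 and -0.73 (adjusted p = 0.00767 and 0.0103, rho = -0.73 and -0.66). Igfbp3 passed in PBS only (r = -0.72, adjusted p = 0.0237, rho = -0.75) and Igfbp4 in RGLS4326 only (r = -0.66, adjusted p = 0.0336, rho = -0.72), and whether the groups differ was not tested. Without the 2 farthest mice, r was -0.76 and -0.74 for Igf1r, -0.68 and -0.76 for Igfbp5, -0.70 for Igfbp3 with PBS and -0.55 for Igfbp4 with RGLS4326. The calls of Igfbp5 and Igfbp3 with PBS (adjusted p = 0.0644 for each) and of Igfbp4 with RGLS4326 (adjusted p = 0.165) were then lost with fewer mice, at r values of the same sign and near in size, while both calls of Igf1r and that of Igfbp5 with RGLS4326 held. Within index series r was -0.96 to -0.71 for Igf1r and -0.98 to -0.54 for Igfbp5. With mouse 9 included, Igfbp3 in treated mice had r = -0.79 (adjusted p = 0.0115), against -0.44 (adjusted p = 0.250) without it. Its rho with mouse 9 was -0.44 (adjusted p = 0.198, permutation test). In all, 5 of 10 members passed in each group. Of all tested genes, 32.8% with PBS and 25.4% with RGLS4326 had an r with Lcn2 at least as far from 0 as the weakest member that passed (0.72 and 0.66), so many genes outside the family followed Lcn2 as well. Scaling by library size weakened the negative relations: Igf1r was -0.64 (adjusted p = 0.0543) with PBS and -0.38 (adjusted p = 0.343) with RGLS4326, and of the negative relations only Igfbp5 with PBS still passed (r = -0.73, adjusted p = 0.0290). Igfbp7 then passed with r = 0.72 and 0.68. Igfbp2 at 0.97 and 0.95 and Igfbp6 at 0.86 and 0.81 kept their calls. In all, 4 members with PBS and 3 with RGLS4326 then passed, beside 38.7% and 31.1% of all genes that reached the r of the weakest of them.

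The calls did not hold with another injury mRNA, although some r values in treated mice were as large. With Havcr1, which encodes the tubule injury protein Kim-1, 0 of 10 members passed in either group by the permutation test (1 with PBS and 4 with RGLS4326 at an unadjusted p under 0.05), and Igfbp2 had r = 0.23 with PBS and r = 0.69 with RGLS4326 (adjusted p = 0.838 and 0.0960, permutation test). In RGLS4326 mice Igfbp5 had r = -0.75 with Havcr1 (adjusted p = 0.0630) and Igfbp4 had r = -0.63 (adjusted p = 0.127), close to their values with Lcn2, and Igf1r had r = -0.59 (adjusted p = 0.130). In PBS mice Igf1r had r = 0.051 with Havcr1. Ligands and Igfbp1 passed with neither mRNA. In whole kidney, fewer cells of a type and less RNA per cell cannot be told apart.

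**Figure D4:**
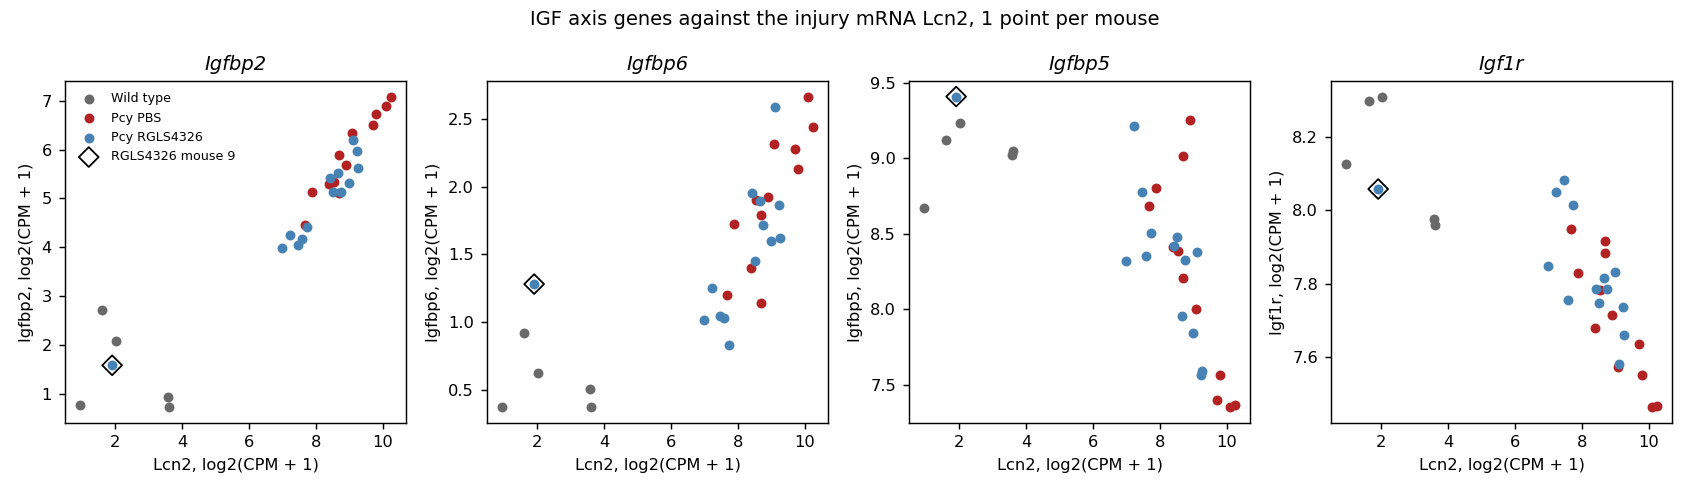
Igfbp2, Igfbp6, Igfbp5 and Igf1r (y axes) against Lcn2 (x axes), both as log2(CPM + 1), with 1 point per mouse colored by group and RGLS4326 mouse 9 outlined. In the PBS mice r is 0.96, 0.83, -0.80 and -0.86 from left to right, and mouse 9 lies with the wild-type mice on the Lcn2 axis.

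Some members also varied together within groups, with r over 0.5 for 4 of 45 pairs and under -0.5 for 4. Over 30 mice, as deviations from group means without mouse 9, Igfbp2 and Igfbp6 had r = 0.88, Igf1r and Igfbp5 had r = 0.66, and Igf1r and Igfbp6 had r = -0.64. The neighbours Igfbp2 and Igfbp5 had r = -0.57. The median over 45 pairs was 0.08. All these points share libraries and scaling, and the values are a description.

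Across 13783 genes, those with the pattern most like Igfbp2 were Fam171a2 (r = 0.95), Ncam1 (0.94), Litaf (0.94), Capg (0.94) and Krt18 (0.94), by the same measure over 30 mice. Krt18, a simple epithelial keratin, is also in the list of injured tubule markers. The nearest gene was Dok1 for Igfbp6 (r = 0.92), 2210404O07Rik for Igfbp4 (0.91), Clec14a for Igfbp5 (0.90), Meox1 for Igfbp3 (0.89), Socs7 for Igf1r (0.88) and Frmd6 for Igf1 (0.87). It was Hacl1 for Igfbp1 (0.81), Mmp11 for Igfbp7 (0.70) and Clec11a for Igf2 (0.67).

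Cell type markers are given beside the shares of all genes called, 24.6% higher and 17.8% lower for PBS against wild type and 20.3% and 11.3% for RGLS4326 against wild type. All 7 injured tubule markers were higher in both Pcy groups, with summed levels of 665 to 1361 CPM in wild type, 3600 to 9185 CPM with PBS and 1213 to 7494 CPM with RGLS4326, the lowest treated value being mouse 9. Fibroblast markers, 6 of 8 higher in both Pcy groups, summed to 136 to 207 CPM, 515 to 1099 CPM and 217 to 1126 CPM in the same order (7 of 8 with library size alone). Macrophage markers were higher for 5 of 6 in both Pcy groups (174 to 202, 432 to 720 and 179 to 869 summed CPM), or 6 with PBS with library size alone. Blood endothelium markers were lower for 2 of 6 in both Pcy groups (223 to 315, 164 to 301 and 160 to 345 summed CPM). This depended on scaling: with library size alone 1 was higher and 1 lower with PBS and 1 was lower with RGLS4326, which was also the count with RGLS4326 without wild-type mouse 3 or 4. Podocyte markers were higher for 1 of 4 in both Pcy groups (149 to 273, 154 to 278 and 146 to 233 summed CPM), or 2 with PBS with library size alone, and 1 of 4 is near the share of all genes. Kidney tubule markers, including Lrp2 and Umod, were abundant in all mice (17960 to 20570, 9102 to 14280 and 11350 to 18480 summed CPM, the last being mouse 9). Of these, 1 of 8 (Aqp2) was higher in both Pcy groups, and 6 were lower with PBS and 4 with RGLS4326, or 3 and 2 with library size alone. None of the markers was at 0 in any mouse. Their part in the differences of Igfbp2, Igfbp4, Igfbp5 and Igfbp6 was not tested.

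Genes outside the family that control how much IGF is free were called in both directions in Pcy kidneys. The same shares of all genes are the background for every list that follows, and for RGLS4326 against PBS they are 0.935% higher and 1.22% lower. Of 12 tested genes of IGF availability outside the members, 7 were higher and 3 lower with PBS against wild type (6 higher without wild-type mouse 3; 7 higher and 1 lower with library size alone), and their median log2 fold change was 0.86, beside 0.01 for all genes. The 3 lower genes are a share of the list near that background. Against wild type, 6 were higher and 2 lower with RGLS4326, or 7 and 0 with library size alone. The named genes are the 3 with the smallest p-value in each list. Stc2, a secreted inhibitor of the Pappa protease, rose from 2.10 ± 0.608 CPM (SD) in wild type to 26 ± 9.59 CPM with PBS (log2 fold change 3.63, adjusted p = 2.15e-08, edgeR) and read 15.1 ± 6.45 CPM with RGLS4326. Its relative Stc1 rose by 1.72 (adjusted p = 8.36e-08). Htra3, a secreted protease with a domain like that of the binding proteins, rose by 3.07 (adjusted p = 3.33e-09). Between the Pcy groups, where values are a description, 2 of the 12 were lower with RGLS4326 by both thresholds (3 with library size alone, and 7 at an unadjusted p under 0.05 by edgeR in either direction), Stc2 at -0.79 (SE 0.23) and the matrix protease Mmp7 at -1.62. Mmp7, named after its values were seen, read 0.419 CPM on average in wild type, 18.1 CPM with PBS and 5.82 CPM with RGLS4326.

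In the growth hormone axis, which drives Igf1 in liver, 4 of 8 genes were higher and 1 lower in each Pcy group against wild type, also with library size alone. Ghr, the growth hormone receptor, fell from 887 ± 27.7 CPM (SD) in wild type to 392 ± 89.1 CPM with PBS (log2 fold change -1.18, adjusted p = 1.99e-08, edgeR). With RGLS4326 it read 528 ± 99.2 CPM. Socs3 and Socs1, feedback inhibitors of cytokine receptors, rose by 3.88 and 1.69 with PBS (adjusted p = 5.79e-08 and 7.18e-06). Between the Pcy groups 0 of 8 passed both thresholds by edgeR and by DESeq2, 2 had an unadjusted p under 0.05 by edgeR, and library size alone gave 1 lower.

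Among 30 tested genes of insulin and IGF receptor signalling, 2 were higher and 8 lower with PBS against wild type (median -0.24), a split that turned to 6 higher and 1 lower with library size alone. Only Mtor, the kinase of growth signalling, was lower under both scalings (log2 fold change -1.03, adjusted p = 8.50e-08, edgeR, and -0.67 with library size alone). The transcription factor Foxo1 had -0.54 (adjusted p = 1.11e-07, edgeR), and with library size alone it read -0.17, which was not called. With RGLS4326, 1 was higher and 4 lower against wild type, or 3 and 0 with library size alone. Between the Pcy groups 0 of 30 passed both thresholds by edgeR and by DESeq2, and 9 had an unadjusted p under 0.05 by edgeR.

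In the fetal and imprinted network around Igf2, 3 of 8 tested genes were higher and 0 lower with PBS, and 3 and 0 with RGLS4326. These were the mRNA-binding proteins Igf2bp1 (1.42), Igf2bp2 (0.60) and Igf2bp3 (2.0, with at most 4 counts per wild-type mouse), in log2 units for PBS over wild type (adjusted p = 2.55e-07, 0.000458 and 8.30e-05, edgeR). With library size alone 5 were higher with PBS. H19, Dlk1 and Hmga2 were below the filter on low counts. In the CCN family, distant relatives of the binding proteins, 4 of 5 were higher with PBS and 3 with RGLS4326 (4 with library size alone). Cyr61 and Ctgf, matrix proteins of injured and fibrotic tissue, rose by 2.37 and 1.55 (adjusted p = 1.72e-05 and 3.79e-07), and Wisp2 by 3.51 (adjusted p = 2.57e-07) from at most 4 counts per wild-type mouse. Between the Pcy groups 0 genes of either list passed both thresholds by edgeR and by DESeq2, with an unadjusted p under 0.05 by edgeR for 0 of the imprinted network and 2 of the CCN family.

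**Figure D5:**
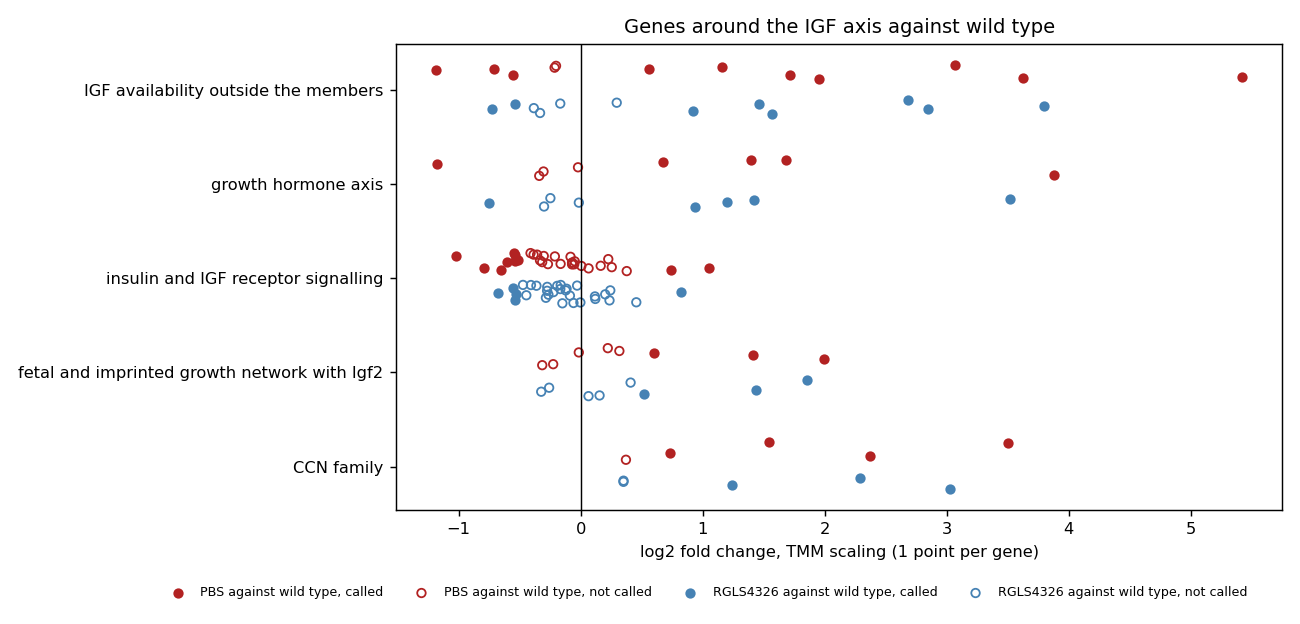
Log2 fold change against wild type (x axis, TMM scaling) of each tested gene in 5 lists around the IGF axis, for PBS and RGLS4326 mice. Filled points passed both thresholds and open points did not. The CCN family lies to the right of 0 throughout, and receptor signalling genes lie mostly between -1 and 0.5.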

How the data were processed

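Kidney mRNA libraries (paired 75-base reads) were made by the authors, trimmed with Trim Galore, mapped with STAR to GRCm38 and counted with HTSeq 0.6.1 on uniquely mapped reads. The deposited values are raw counts per gene and mouse, which the authors did not normalize. Reads outside genes or ambiguous (10.8 to 12.9% per mouse) were left out. Genes were kept by filterByExpr and tested with edgeR 4.0.16 (quasi-likelihood, TMM, 1 model of all 31 mice, no covariate) with Benjamini-Hochberg adjustment. A gene was called where the adjusted p was under 0.05 and the change exceeded 0.5 in log2 units, either way. The procedure was tested on simulated data. Associations used log2(CPM + 1). Gene lengths came from GENCODE vM21 and sequences from RefSeq (GRCm38.p6). Low counts, as for Igfbp6 and Igf2, are measured least precisely.

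The members and lists were chosen with earlier results of these data known. Named genes were the 10 members, 3 genes per list (smallest p-value, PBS over wild type), the 5 genes most like Igfbp2 and 1 for each other member, Lcn2 and Havcr1. One gene named by this rule is not reported here. Adgre1 is listed as Emr1. Alternatives covered filter, scaling, test, samples, index series, pseudocount, replicate block and leaving out each mouse; library size alone was chosen after seeing the data. Same-numbered mice were not paired.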

Additional observations from a re-analysis of the deposited data

How the results depend on the processing

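Igfbp6 was higher and Igfbp4 lower against wild type under TMM, DESeq2 size factors and library size alone. With no threshold on size, 2 members were higher in each comparison with wild type, and 4 were lower with PBS and 3 with RGLS4326. Of all 15185 genes, 5721 were then higher and 5560 lower with PBS, and 4938 and 4923 with RGLS4326. With library size alone, 3 were higher and 1 lower with PBS and 1 was lower with RGLS4326, and 3 members followed Lcn2 in RGLS4326 mice (31.1% of all genes had an r at least as large as the weakest of them). Within index series 2, a fit of fewer mice, 2 members were higher and 2 lower with PBS, beside 2969 and 2223 of 15188 genes. With RGLS4326 0 were higher and 0 lower in that series, beside 289 and 83 genes, so few genes of any kind were called. Series 3 has 1 wild-type mouse, assumed to vary like the others, and no count is given for it. With Havcr1, 0 members passed in each group, and without the 2 farthest mice 2 passed with PBS. Leaving out each mouse gave 2 to 3 members lower with PBS, 2 to 3 with RGLS4326 and 1 higher in each. Replicate numbers did not pair mice (mean correlation of deviations 0.087, -0.030 and -0.085), and with a replicate block 3 members were lower with RGLS4326, Igfbp5 being added at -0.88 (adjusted p = 0.0405); the block gave Igf2 0.038 with PBS.

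Apart from Igf1r with Havcr1 in PBS mice, whose relation with Lcn2 had passed, reversed signs concerned values that passed no test in the main analysis. Some of these had passed under an alternative named above. These were Igf1 with PBS and Igfbp7 with Lcn2 by library size alone, Igfbp1 with PBS in series 2, and Igfbp3 with mouse 9. Igf1 was -0.13 with PBS and -0.089 with RGLS4326 in series 3. Igf2 was 0.27 with PBS by library size alone, 0.19 in series 2 with PBS and -0.060 in series 1 with RGLS4326, and -0.20 to 0.0035 and -0.083 to 0.13 when each mouse was left out. Igfbp1 was -0.80 and -0.28 with PBS in series 1 and 3, and 0.73 in series 2 and 0.043 by library size alone with RGLS4326, with ranges of -0.043 to 0.45 and -0.39 to 0.077. With Havcr1, r in PBS was 0.14 for Igf1, 0.036 for Igf2, 0.051 for Igf1r and -0.28 for Igfbp7, and in RGLS4326 0.040 for Igf2 and -0.099 for Igfbp1. By library size alone r was 0.12 for Igf1 and 0.019 for Igf2 in PBS and 0.115 for Igf2 in RGLS4326. With mouse 9, r was -0.18 for Igf1 and 0.057 for Igf2. Without the 2 farthest mice, r in RGLS4326 was -0.13 for Igfbp1, 0.0078 for Igfbp3 and -0.083 for Igfbp7. The cause was not tested.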
